A study of Mus musculus with 21 samples.

Results

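The guanylate-binding protein (GBP) genes Gbp2, Gbp3, Gbp4, Gbp5, Gbp6 and Gbp7 were followed across 7 groups of mouse haematopoietic cells that differed in the transcription repressors Bach1 and Bach2. The 6 genes were taken by symbol, because their signal was higher in progenitors given a Bach2 vector than in progenitors given a control vector. They had 7 probes among the 26413 probes that could be named, which represent 20018 genes. Gbp6 had 2 probes and every other member had 1. All values of the vector comparison are therefore a description, as are those of the B220+ cells, which share arrays with it, and no test of the members is given there. The comparisons of knockout with wild-type cells were not the contrast from which the genes were chosen and are tested. Earlier results of these data were known at that choice, so these tests are no independent check.

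RNA was measured on 21 single-colour Agilent arrays, 3 per group. CLPs (common lymphoid progenitors, the marrow source of lymphocytes) came from mice deficient in both Bach1 and Bach2 (DD) and from wild-type (WT) mice. Their RNA was pooled from mice, and lineage-positive cells had been removed only in part before the sort. Multipotent progenitors (MPPs) came from WT mice, with 4 mice pooled per experiment, and were stimulated overnight with SCF, IL-3 and IL-6 before infection with a retrovirus. B220+ cells had received the Bach2-GFP vector, spent 24 h in multilineage culture and 6 days under B-lineage conditions, and were sorted for GFP and B220, a surface protein of B-lineage cells. Bach2-vector MPPs (Bach2-GFP) and control-vector MPPs (MSCV-GFP) were sorted for GFP after 2 days of multilineage culture. Bach2 in these cells thus came from a viral promoter, and the B220+ group differs from both MPP groups in culture and sort as well as in time. Follicular B cells of Bach2-knockout (Bach2KO) and WT mice spent 24 h in culture with an anti-IgM fragment at 10 ug/ml, which engages the B-cell receptor. According to their labelling protocol a single RNA sample per genotype was amplified. The spread between those arrays may thus be wholly technical, and their p-values then measure no spread between animals. The sources used here name no sort gate for those cells and do not tie the other arrays of a group to separate animals.

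GBPs are large GTPases that interferons, above all interferon-gamma, induce in many cell types. They assemble on the membranes of intracellular bacteria and of parasite vacuoles and help to break them and to start inflammasome signalling. In the mouse their genes lie in separate clusters on different chromosomes, next to one another and similar in sequence. Their promoters carry interferon-stimulated response elements, bound by interferon regulatory factors, and gamma-activated sites, which respond to interferon-gamma.

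In the RefSeq annotation of GRCm38.p6 the members fall into 2 clusters. Chromosome 3 holds, in this order, Gbp5, Gbp7, Gbp3, Gbp2b and Gbp2, and chromosome 5 holds Gbp8, Gbp9, Gbp4, Gbp10, Gbp6 and the pseudogene Gbp11. Sequence before the transcript start was at hand for 4 of the 6 members, all of them on chromosome 3. These 4 were also the members whose arrays did not overlap between knockout and WT follicular B cells, so no member that overlapped there could be searched. The lines give the 250 bases before the annotated start, 5′ to 3′ on the + strand, with capitals marking, on either strand, GAAA, any pair of bases and GAAA again. The windows are chr3:142620413-142620662 for Gbp2, chr3:142496684-142496933 for Gbp5, chr3:142559794-142560043 for the first start of Gbp3 and chr3:142530086-142530335 for Gbp7.
Gbp2: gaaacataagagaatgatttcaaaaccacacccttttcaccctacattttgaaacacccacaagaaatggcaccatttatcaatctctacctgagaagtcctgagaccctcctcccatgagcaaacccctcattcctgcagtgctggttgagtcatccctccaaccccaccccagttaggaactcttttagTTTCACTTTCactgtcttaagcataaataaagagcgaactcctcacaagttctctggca
Gbp5: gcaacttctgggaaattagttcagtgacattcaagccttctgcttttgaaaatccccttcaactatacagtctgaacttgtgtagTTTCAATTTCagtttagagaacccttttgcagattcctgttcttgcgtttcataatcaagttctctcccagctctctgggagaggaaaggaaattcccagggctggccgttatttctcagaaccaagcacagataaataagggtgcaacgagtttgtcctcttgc
Gbp3: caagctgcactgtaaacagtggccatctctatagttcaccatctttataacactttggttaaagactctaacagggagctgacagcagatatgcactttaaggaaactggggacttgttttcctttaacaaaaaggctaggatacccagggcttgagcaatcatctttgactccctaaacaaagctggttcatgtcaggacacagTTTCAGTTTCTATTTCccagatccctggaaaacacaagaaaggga
Gbp7: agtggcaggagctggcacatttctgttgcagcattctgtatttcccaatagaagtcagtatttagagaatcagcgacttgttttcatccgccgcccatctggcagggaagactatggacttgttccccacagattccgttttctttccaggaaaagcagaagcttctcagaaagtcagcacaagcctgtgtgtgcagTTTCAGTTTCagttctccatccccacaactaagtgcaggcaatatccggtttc

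This motif, the core of the interferon-stimulated response element, was found in all 4 of these windows and in 2.98% of 32851 RefSeq promoter windows of the same length. Gbp2 held it at bases -59 to -50 from the start, Gbp7 at -53 to -44 and Gbp5 at -165 to -156. The first start of Gbp3 held overlapping matches at -45 to -36 and -39 to -30, and a second annotated start of Gbp3 held none. TTCNNNGAA, the gamma-activated site, stood in 7.02% of all windows; Gbp5 held it at -245 to -237 and -52 to -44, and Gbp7 at -106 to -98 and -87 to -79. TGANTCA, the AP-1 element, stood in 6.75% of all windows and in that of Gbp2, at -102 to -96. A core of the Maf recognition element, the longer element that Bach proteins bind with small Maf proteins, was in 0.134% of all windows and in none of the 5 member windows. All 4 motifs were searched on both strands. A match says only that these letters are there; binding was not measured.

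**Figure D1:**
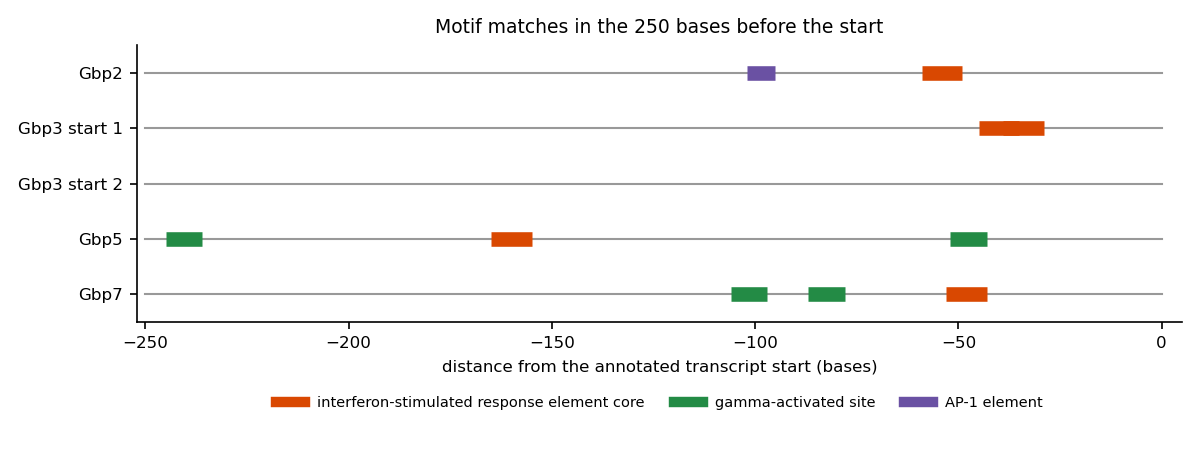
Motif matches in the 5 member windows. The horizontal axis is the distance in bases from the annotated transcript start, each grey line is 1 window of 250 bases, and coloured blocks mark the interferon-stimulated response element core, the gamma-activated site and the AP-1 element on either strand. The response element core stands in every window except that of the second start of Gbp3.

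Levels are given as log2 of the processed signal minus the array's 75th percentile, so that 0 is the signal of a fairly bright spot and each unit is a doubling. Levels were not compared between probes. Between 50.9% and 81.5% of spots on an array were well above background, and the follicular B-cell arrays were the dimmest. Bach2KO replicate 2 was the dimmest array, with a 75th percentile of 97.3, against 195 to 358 on the other follicular B-cell arrays. Bach2 itself, on its brighter probe, was 13.5-fold lower in Bach2KO than in WT follicular B cells (limma, adjusted p = 9.2e-04). The same probe was 4.32-fold lower in DD than in WT CLPs and differed by 1.15 ± 0.60 between Bach2-vector and control-vector MPPs, without passing (adjusted p = 0.999 and 0.774). Bach1 was 1.44-fold lower in DD than in WT CLPs and did not pass either (limma, adjusted p = 0.999). A dimmer Bach2 probe averaged -2.91 ± 1.44 in Bach2-vector MPPs and -7.34 ± 1.13 in control-vector MPPs, where 1 of 3 arrays exceeded background. Follicular B cells carried their defining genes, with Ms4a1 at 5.88 ± 0.51 in Bach2KO and 7.04 ± 0.53 in WT cells (SD, n = 3). In B220+ cells genes of committed B cells were mixed. Ms4a1 exceeded background on no array, Ebf1 did so on 1 of 3, and Pax5 on 3 of 3, at -5.80 ± 0.23. Of the 11 tested B-lineage markers 6 were above and 5 below control-vector MPPs, and 1 rose, Cd22, with 0.78 ± 0.34 in B220+ cells and -0.48 ± 0.05 in control-vector MPPs (adjusted p = 0.00959). Ly6d and Dntt, early lymphoid genes, were 77.7-fold and 114-fold higher in B220+ cells than in Bach2-vector MPPs (limma, adjusted p = 8.4e-04 and 8.2e-06).

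**Figure D2:**
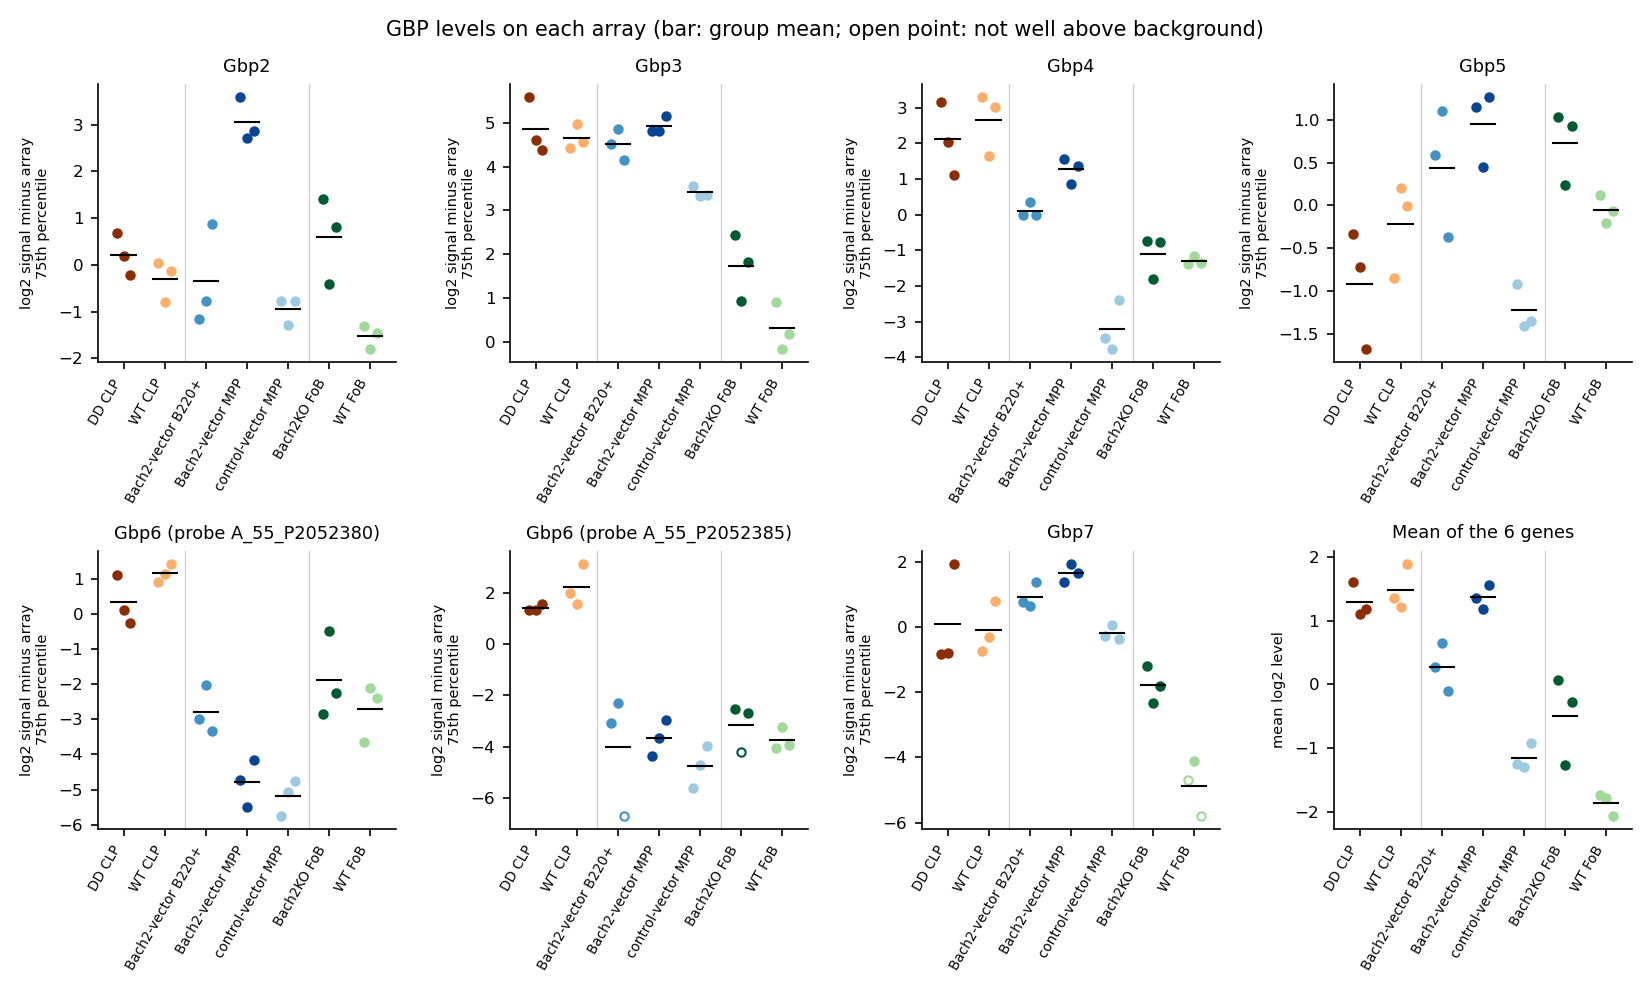
Signal of every member probe on each of the 21 arrays, and the mean of the 6 genes. The vertical axis is log2 signal minus the array's 75th percentile, points are arrays coloured by group, bars are group means and open points were not well above background. The Bach2-vector MPPs lie above the control-vector MPPs for all genes except Gbp6, and the CLPs carry Gbp4 and Gbp6 highest.

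In Bach2-vector MPPs, 5 of the 6 genes had all 3 arrays above all 3 control-vector arrays, a separation that 7.66% of the 16988 genes tested showed in that direction. These genes were chosen from this contrast, so the count describes the choice. Gbp4 and Gbp2 stood highest, at 22.3-fold and 15.99-fold, and their differences ranked 10 and 17 among the 16988 genes. The median difference of the 6 was 2.01 on the log2 scale, against -0.02 over all genes.

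Gbp2, which is lipid-anchored and coats pathogen vacuoles, read 3.59, 2.71 and 2.86 in Bach2-vector MPPs, against -0.78, -1.28 and -0.78 in control-vector MPPs. The difference was 4.00 ± 0.50 (log2 ± SE). Gbp5, also lipid-anchored and known for promoting inflammasome assembly, read 1.15, 0.45 and 1.26 in Bach2-vector MPPs, against -0.92, -1.40 and -1.35 in control-vector MPPs. Gbp5 was thus 4.53-fold higher, with a difference of 2.18 ± 0.40, and its lowest Bach2-vector array lay well above its highest control-vector array. Gbp7, which in mouse macrophages has been tied to the assembly of the phagocyte oxidase, read 1.39, 1.93 and 1.64 in Bach2-vector MPPs, against -0.26, 0.07 and -0.36 in control-vector MPPs. It was 3.57-fold higher, with a difference of 1.84 ± 0.28. Gbp3, another interferon-induced member, read 4.81, 4.81 and 5.16 in Bach2-vector MPPs, against 3.56, 3.32 and 3.35 in control-vector MPPs. Its 2.86-fold difference (1.52 ± 0.25) was the smallest of the 4 genes on chromosome 3.

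On chromosome 5 the members differed among themselves. Gbp4 read 1.57, 0.87 and 1.36 in Bach2-vector MPPs, against -3.47, -3.78 and -2.39 in control-vector MPPs, a difference of 4.48 ± 0.38. It was the largest mean difference of the 6, although the gap between the nearest arrays was wider for Gbp2. Gbp6 was low in both groups. Its brighter probe, A_55_P2052385, read -4.36, -3.65 and -2.94 in Bach2-vector MPPs, against -5.60, -4.71 and -3.95 in control-vector MPPs. Those ranges overlapped, and the difference was 1.10 ± 1.01. The other Gbp6 probe, A_55_P2052380, read -4.72, -5.48 and -4.15 in Bach2-vector MPPs, against -5.75, -5.06 and -4.75 in control-vector MPPs, and overlapped as well (0.40 ± 0.47). Between same-numbered arrays the brighter probe was higher with the Bach2 vector in every pair, by 1.24, 1.06 and 1.01, whereas the other probe was lower in replicate 2. GBP genes resemble one another in sequence and the probe sequences were not used here, so a signal may hold transcripts of a neighbouring copy.

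The MPP arrays lay on 2 slides, with replicate 1 of each vector on slide 1 and the others on slide 7. Within slide 1 the Gbp4 difference was 5.04 and within slide 7 it was 4.20. For Gbp2 these values were 4.37 and 3.81, and for the median of the 6 genes they were 1.86 and 2.08. Marker sums of other cell types differed in range between the vectors. The summed linear signal of the 8 monocyte and macrophage markers, in units of the array's 75th percentile, was 31.8 to 67.7 in Bach2-vector MPPs and 66.5 to 119 in control-vector MPPs, with 0 of 8 markers passing the test. That of the 8 granulocyte markers was 280 to 353 in Bach2-vector MPPs and 386 to 412 in control-vector MPPs, with only the granulocyte collagenase gene Mmp8 passing, 68.3-fold lower (adjusted p = 0.00241). Erythroid and megakaryocyte markers summed to 2.07 to 3.80 in Bach2-vector MPPs and 8.14 to 12.4 in control-vector MPPs, with 0 of 7 passing. Of these 7 genes 6 had a positive difference, with a median of 0.31, and the lower sum went with Pf4, which averaged 0.74 ± 0.21 in Bach2-vector MPPs and 3.16 ± 0.29 in control-vector MPPs. The 12 NK and T cell markers summed to 3.40 to 3.57 in Bach2-vector MPPs and 2.10 to 17.4 in control-vector MPPs, and Ncr1, Klrk1 and Cd3g were below that level on all arrays of both groups. The part of cell mixture in the GBP differences was not tested; in bulk RNA a change in the share of cells cannot be told apart from a change in RNA per cell.

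The other GBP genes had 4 genes with named probes, and 2 of them rose with the Bach2 vector, where 1.07% of all genes rose. They belong to the family chosen from this contrast, and their list was written with earlier results known. Their count and p-values are therefore no independent check. Gbp8 read -2.24, -2.74 and -2.82 in Bach2-vector MPPs, against -5.65, -5.61 and -4.77 in control-vector MPPs, a 6.69-fold rise (adjusted p = 0.0185). Gbp9 read -0.93, -0.77 and -1.21 in Bach2-vector MPPs, against -3.59, -2.54 and -2.16 in control-vector MPPs, a 3.47-fold rise (adjusted p = 0.0484). Both lie on the same side of Gbp4 on chromosome 5, with Gbp9 next to it. Gbp10, on the far side of Gbp4, differed by -0.12 ± 0.21, and Gbp2b on chromosome 3, on its brighter probe, by 1.15 ± 0.44 (adjusted p = 0.42). The other Gbp2b probe, A_51_P398766, read -4.09, -4.45 and -4.85 in Bach2-vector MPPs, all well above background, against -8.90, -7.57 and -6.49 in control-vector MPPs, where 1 of 3 arrays was. On both Gbp2b probes the Bach2-vector arrays lay above all control-vector arrays.

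Interferon-induced genes around the GBPs were mostly higher with the vector, but few passed. Genes of interferon-gamma and its receptor signalling were higher for 4 of 8. The immunity-related GTPases (IRGs), a second family of interferon-induced GTPases that act on the same vacuoles, were higher for 7 of 7 genes, where 47.2% of all genes were, and 1 of them passed. Tgtp2 read 4.69, 4.83 and 5.04 in Bach2-vector MPPs, against 1.88, 2.88 and 3.06 in control-vector MPPs, and rose 4.75-fold (adjusted p = 0.0108). The median of the IRGs was 1.18 on the log2 scale, against -0.02 over all genes. Of 10 type I interferon response genes all were higher and 2 passed: the RNA sensor Ifih1 rose 3.45-fold (adjusted p = 0.0149), and Cmpk2, a mitochondrial nucleotide kinase induced by interferon, rose 5.79-fold (adjusted p = 0.00491). Their median was 1.93.

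Upstream, 0 of 8 genes of interferon-gamma and its receptor signalling passed, with a median of 0.03. The ligand gene Ifng was well above background on 1 of 3 Bach2-vector arrays and on 2 of 3 control-vector arrays, and differed by -0.04 ± 0.29. The receptor chains Ifngr1 and Ifngr2 differed by -0.32 ± 0.37 and -0.63 ± 0.39. The kinase Jak2 differed by 0.93 ± 0.29 (adjusted p = 0.236). Irf1, an interferon-induced activator of GBP genes, was higher on all Bach2-vector arrays but did not pass (0.62 ± 0.27, adjusted p = 0.569). Among the other interferon regulatory factors, Irf8 and Irf9 differed by 0.39 ± 0.29 and 0.60 ± 0.37 and did not pass. Irf4, a factor of lymphoid and dendritic cells, rose 7.46-fold (adjusted p = 0.0142). The 4 listed regulatory factors of haematopoietic cells, Irf2, Irf4, Irf5 and Irf8, were all higher, with a median of 1.05, and Irf4 alone passed. Nlrc5, an activator of MHC class I genes that interferon-gamma induces, fell 2.52-fold (adjusted p = 0.0473), where 0.724% of all genes fell. It was the only 1 of the 10 tested genes of its list, other genes that interferon-gamma induces, to pass; 8 of the 10 were above 0, where 47.2% of all genes were, with a median of 0.40.

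In B220+ cells, which carried the same Bach2 vector for longer, the pattern of the 6 genes was another one. Compared with control-vector MPPs, 4 of 6 (Gbp3, Gbp4, Gbp5 and Gbp7) lay higher on all arrays, where 11% of genes did, and the median difference was 1.11, against -0.29 over all genes. Compared with Bach2-vector MPPs, 3 of 6 (Gbp2, Gbp4 and Gbp7) lay lower on all arrays, where 21.8% of genes did, and the median difference was -0.62, against -0.25 over all genes. Bach2 itself, on its brighter probe, differed in B220+ cells by -1.27 ± 0.60 from Bach2-vector MPPs and by -0.12 ± 0.60 from control-vector MPPs and passed in neither (adjusted p = 0.230 and 0.909), and its dimmer probe averaged -3.89 ± 2.04. Both comparisons share arrays with the vector comparison, so each set of values is given for itself.

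Gbp2 read -1.15, -0.77 and 0.87 in B220+ cells, against a mean of 3.05 ± 0.47 in Bach2-vector MPPs and -0.95 ± 0.29 in control-vector MPPs (SD, n = 3). It was 10.6-fold lower than in Bach2-vector MPPs (-3.40 ± 0.50), and it overlapped the control-vector arrays (0.60 ± 0.50). Gbp4 read -0.01, 0.34 and -0.02 in B220+ cells, against 1.27 ± 0.36 in Bach2-vector MPPs and -3.21 ± 0.73 in control-vector MPPs. Gbp4 was thus intermediate, 2.24-fold lower than in Bach2-vector MPPs and 9.97-fold higher than in control-vector MPPs. These 2 genes had the widest vector differences. In B220+ cells they differed from each other, as Gbp2 overlapped the control-vector arrays and Gbp4 lay above all of them. Gbp7 was, like Gbp4, lower than in Bach2-vector MPPs and higher than in control-vector MPPs on all B220+ arrays. The vector difference and the difference of B220+ cells from Bach2-vector MPPs use the same Bach2-vector arrays, so they are not independent.

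Gbp3 read 4.51, 4.85 and 4.16 in B220+ cells and overlapped the Bach2-vector arrays (-0.42 ± 0.25), while lying 2.14-fold above control-vector MPPs. Gbp5 read 0.59, 1.10 and -0.37 in B220+ cells, overlapped the Bach2-vector arrays as well (-0.52 ± 0.40) and lay 3.17-fold above control-vector MPPs. Gbp7 read 0.77, 0.64 and 1.38 in B220+ cells, 1.65-fold lower than in Bach2-vector MPPs (-0.72 ± 0.28) and 2.17-fold higher than in control-vector MPPs. All 3 stayed above every control-vector array.

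The Gbp6 probes disagreed on 1 of the 3 B220+ arrays. The brighter probe read -3.09, -2.29 and -6.68 and was well above background on 2 of 3 arrays; it differed from Bach2-vector MPPs by -0.37 ± 1.01 and from control-vector MPPs by 0.74 ± 1.01. The other probe read -2.98, -2.02 and -3.33, 4.02-fold above Bach2-vector MPPs and 5.30-fold above control-vector MPPs. Without B220+ replicate 3 the brighter probe differed by 0.96 from Bach2-vector MPPs and by 2.07 from control-vector MPPs. Without B220+ replicate 2 these values were -1.23 and -0.13. All B220+ arrays lay on slide 1, which held 1 array of each MPP group. Within that slide the B220+ minus Bach2-vector difference was -3.94 for Gbp2 and 0.34 for the brighter Gbp6 probe, whose sign thus differed from that over all arrays. The median of the 6 genes within slide 1 was -0.58 against the Bach2-vector array and 1.28 against the control-vector array.

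Gbp8 and Gbp9 stood in B220+ cells at -2.06 and -0.81 on average, 9.73-fold and 3.88-fold above control-vector MPPs (adjusted p = 0.00227 and 0.00949). Against Bach2-vector MPPs they differed by 0.54 ± 0.45 and 0.16 ± 0.37 and did not pass. The chromosome 5 genes Gbp8, Gbp9 and Gbp4 were higher than in control-vector MPPs on all B220+ arrays. Gbp10, also on chromosome 5, read -2.86, -2.96 and -2.70 in B220+ cells, against -2.39, -2.35 and -2.49 in control-vector MPPs, lower on all arrays without passing (adjusted p = 0.202). The brighter Gbp2b probe exceeded background on no B220+ array and the other Gbp2b probe on 1 of 3.

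**Figure D3:**
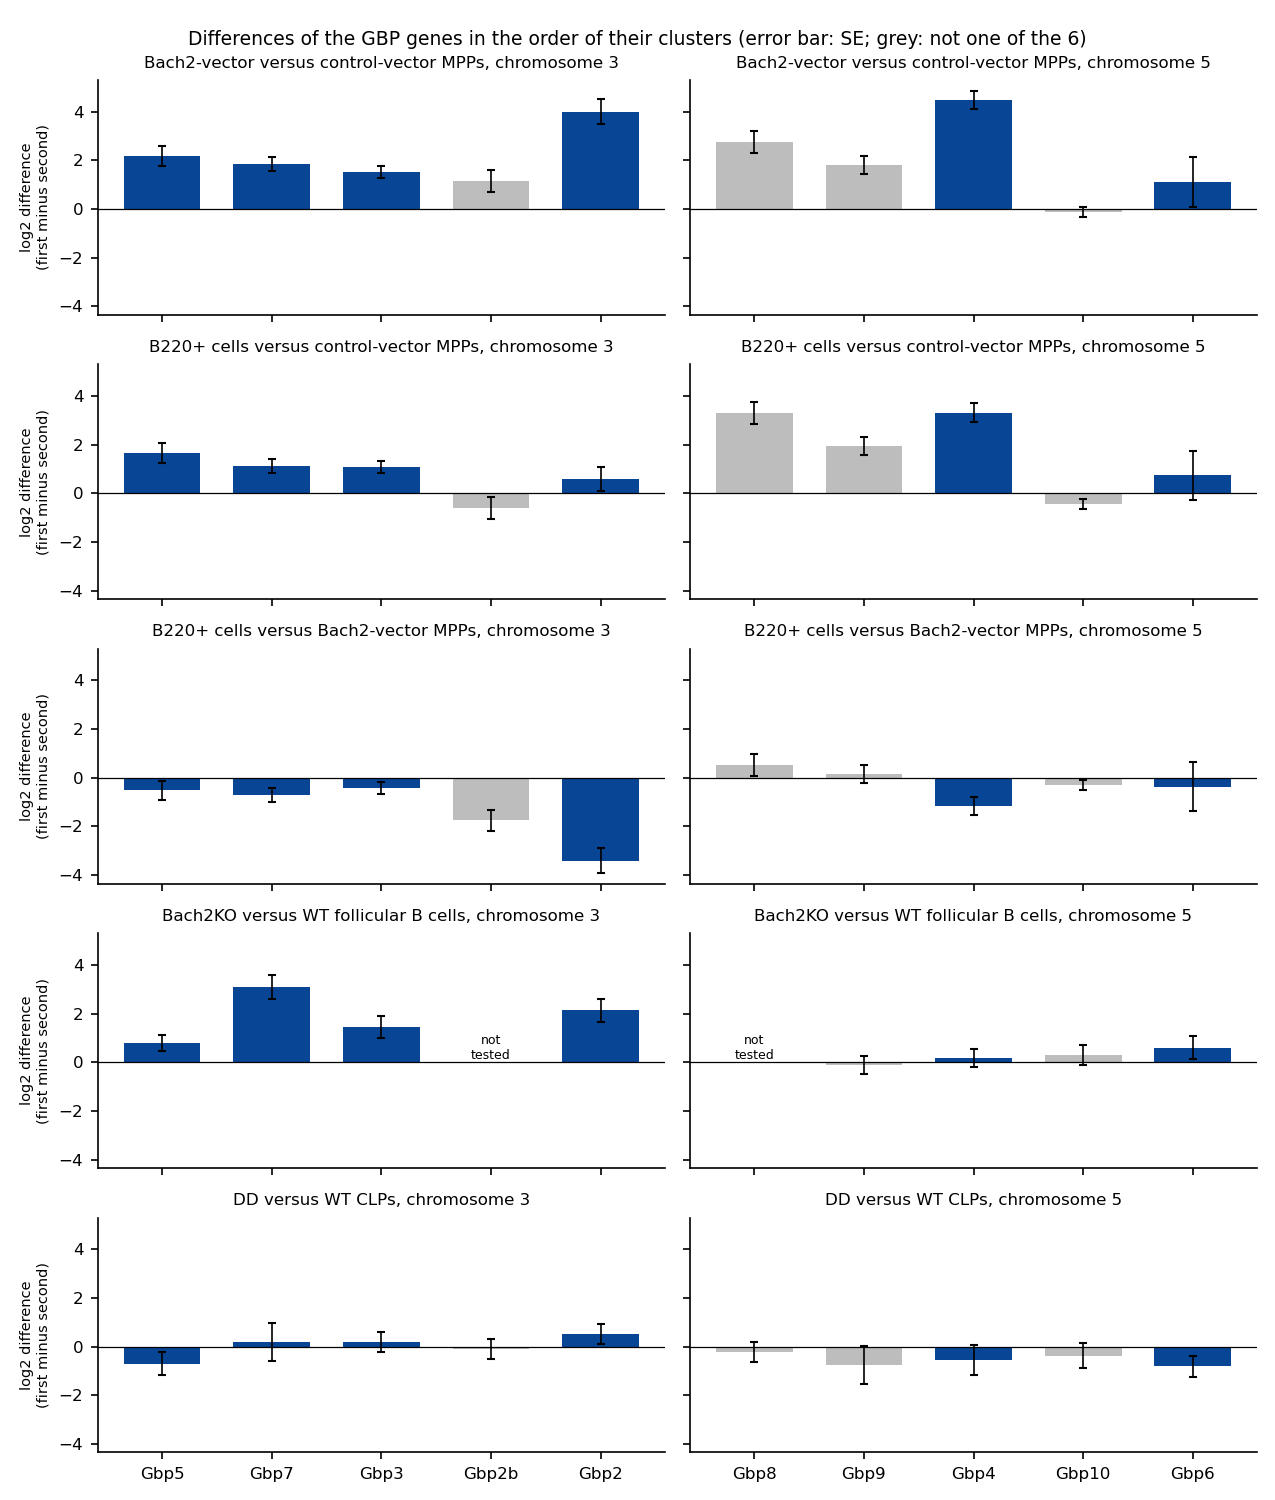
Log2 differences of the GBP genes, in the order of the genes on chromosome 3 (left) and chromosome 5 (right), for 5 comparisons from top to bottom, each the first-named group minus the second. Bars are differences with their SE; blue bars are the 6 genes and grey bars the other family members. Gbp2 and Gbp4 are highest in the vector comparison, and Gbp2 is the lowest bar between B220+ cells and Bach2-vector MPPs.

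Around the GBPs the B220+ cells differed from both MPP groups in other ways. Compared with control-vector MPPs, 4.65% of genes rose, and among them were 3 of 7 genes of type I interferon signalling: Stat2 by 2.70-fold, Irf7 by 4.88-fold and Irf9 by 2.55-fold (adjusted p = 0.00596, 0.0255 and 0.0480). Of all genes 7.46% fell in that comparison, and 2.01% rose against Bach2-vector MPPs. Irf8, which drives dendritic and early B-lineage programs, rose 3.40-fold over control-vector MPPs and 2.59-fold over Bach2-vector MPPs (adjusted p = 0.00555 and 0.0278). Ifng exceeded background on no B220+ array. Against control-vector MPPs, Irf1 and Jak2 differed by 0.09 ± 0.27 and 0.81 ± 0.29, and Ifngr1 and Ifngr2 by -0.78 ± 0.37 and -0.34 ± 0.39, and none passed.

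Against Bach2-vector MPPs, 4.16% of genes fell. Of the 7 IRGs 2 fell, Igtp by 3.41-fold and Tgtp2 by 2.76-fold (adjusted p = 0.0227 and 0.0325). Socs1, which inhibits interferon signalling, fell 2.23-fold (adjusted p = 0.0408). The 10 type I interferon response genes were lower for 10 of 10, where 34.4% of all genes were above 0, with a median of -1.47, and 0 passed under limma, the smallest adjusted p being 0.0576 for Oasl2. Ifngr1, Ifngr2, Jak2, Irf1 and Irf9 differed by -0.46, 0.29, -0.12, -0.53 and 0.75 on the log2 scale and did not pass. Monocyte and macrophage markers summed to 121 to 131 in B220+ cells, 31.8 to 67.7 in Bach2-vector MPPs and 66.5 to 119 in control-vector MPPs. Of these 8 markers 5 were above Bach2-vector MPPs, with a median of 1.06, and 3 above control-vector MPPs, with a median of -0.31. The receptor gene Csf1r was 10.4-fold higher in B220+ cells than in Bach2-vector MPPs (adjusted p = 0.0381). Dendritic cell markers summed to 79.4 to 88.4 in B220+ cells and 103 to 175 in Bach2-vector MPPs. Of 7 tested genes 2 were above Bach2-vector MPPs, with a median of -0.43, 0 rising and 2 falling. The NK and T cell markers as a list were not higher than in Bach2-vector MPPs, with 5 of 11 tested genes above 0, a median of -0.31 and sums of 2.28 to 2.88 in B220+ cells and 3.40 to 3.57 in Bach2-vector MPPs. Of these markers 2 rose, Klrk1 and Cd3g, at least 14.9-fold and 8.40-fold above Bach2-vector MPPs, where neither exceeded background, whereas Cd3e was lower on all B220+ arrays and did not pass (adjusted p = 0.169). The part of these markers in the GBP values was not tested.

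In follicular B cells without Bach2 all 6 members had a positive difference, where 38.1% of the 13068 genes tested did, and 1 of 6 rose, where 2.2% of genes did. That gene was Gbp7. The arrays of the groups did not overlap for 4 of 6 members, where 8.1% of genes separated in that direction, and these were the 4 members on chromosome 3. The median difference was 1.11, against -0.16 over all genes.

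Gbp7 read -1.19, -2.34 and -1.81 on the Bach2KO arrays, against -4.70, -4.12 and -5.80 on the WT arrays. It was 8.55-fold higher in the knockout, a difference of 3.095 ± 0.48 with a 95% interval of 2.00 to 4.19 (limma, adjusted p = 0.0106). Its probe was well above background on 3 of 3 Bach2KO arrays and on 1 of 3 WT arrays, so the WT level is close to the background. Gbp2 read 1.41, -0.42 and 0.82 on the Bach2KO arrays, against -1.31, -1.81 and -1.45 on the WT arrays. It was 4.37-fold higher and just missed the threshold (2.13 ± 0.47, interval 1.07 to 3.18, adjusted p = 0.0517).

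Gbp3 read 2.44, 0.94 and 1.83 on the Bach2KO arrays, against 0.91, -0.18 and 0.18 on the WT arrays, a difference of 1.43 ± 0.46 (adjusted p = 0.21). Its lowest knockout array lay only just above its highest WT array. Gbp5 read 1.03, 0.24 and 0.93 on the Bach2KO arrays, against 0.12, -0.21 and -0.06 on the WT arrays, a difference of 0.78 ± 0.33 (adjusted p = 0.427). For Gbp2, Gbp3, Gbp5 and Gbp7 alike, Bach2KO replicate 2, the dimmest array, was the lowest of the knockout arrays.

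On chromosome 5 the groups overlapped. Gbp4 read -0.73, -1.81 and -0.77 in the knockout, against -1.38, -1.15 and -1.36 in the WT, a difference of 0.19 ± 0.37 with an interval of -0.64 to 1.02 (adjusted p = 0.866). The brighter Gbp6 probe read -2.51, -4.20 and -2.69 on the Bach2KO arrays, against -4.03, -3.24 and -3.91 on the WT arrays (0.59 ± 0.48, adjusted p = 0.705). The other Gbp6 probe read -2.86, -0.48 and -2.25 on the Bach2KO arrays, against -3.65, -2.10 and -2.40 on the WT arrays (0.85 ± 0.67). Gbp9 and Gbp10 differed by -0.12 ± 0.38 and 0.29 ± 0.42 and did not pass, and Gbp2b and Gbp8 did not meet the detection filter. The GBP genes of chromosome 5 thus gave no call in follicular B cells.

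Replicate numbers were taken to pair the follicular B-cell arrays. A single RNA sample per genotype may lie behind these arrays. The same number then marks no pair of animals, and the p-values of the paired fit measure technical spread only. With the number as a block, 4 of the 6 rose: Gbp7, Gbp2, Gbp3 and Gbp5 (adjusted p = 4.5e-06, 1.5e-05, 1.3e-04 and 0.0147), with 2976 genes called in all. By number 1, 2 and 3 the knockout minus WT difference was 3.51, 1.79 and 3.99 for Gbp7 and 2.72, 1.39 and 2.27 for Gbp2. Gbp4 changed sign between numbers, at 0.64, -0.67 and 0.59. Within slide 3 the Gbp7 difference was 2.89 and within slide 4, which held 1 array of each genotype, it was 3.51; those of Gbp2 were 1.83 and 2.72. The Gbp7 call was lost under quantile normalization (2.90, adjusted p = 0.0550), with normexp background correction (0.89, adjusted p = 0.291) and without Bach2KO replicate 3 (3.11, adjusted p = 0.0611). When only genes well above background on all arrays were kept, 4 of the 6 members were tested, and Gbp7 was not among them. Without Bach2KO replicate 2 both Gbp7 and Gbp2 rose, Gbp2 by 2.64 (adjusted p = 0.00964).

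Interferon genes also rose in Bach2KO follicular B cells. Ifng read 5.57, 5.24 and 5.18 on the Bach2KO arrays, against 1.17, 1.09 and 0.71 on the WT arrays, and rose 20.2-fold (adjusted p = 2.4e-04). It was the only 1 of 8 genes of interferon-gamma and its signalling to pass. Irf1 and Jak2 differed by 0.61 ± 0.35 and -0.27 ± 0.32, and Ifngr1 and Ifngr2 by 0.08 ± 0.29 and -0.30 ± 0.31. Irf8 and Irf9 differed by -0.07 ± 0.40 and 0.06 ± 0.31, and Irf7 rose 3.44-fold (adjusted p = 0.0157). Of the IRGs 1 of 7 rose. That was Tgtp2, which read 2.80, 1.71 and 2.12 on the Bach2KO arrays, against 0.47, -0.05 and -0.27 on the WT arrays (4.48-fold, adjusted p = 0.0183).

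Of the 10 type I interferon response genes 5 rose, with a median of 2.11 for the list. Oasl1 rose 9.23-fold, Ifih1 5.95-fold, Isg15 5.12-fold and Oasl2 3.65-fold (adjusted p = 0.00175, 0.00238, 0.00564 and 0.0175). Rsad2, an antiviral enzyme, exceeded background on no WT array and was at least 4.70-fold higher (adjusted p = 9.5e-04). The chemokine gene Cxcl10 was likewise at least 6.42-fold higher (adjusted p = 0.00877). Downstream, Il18, a cytokine that inflammasomes process, fell 4.40-fold (adjusted p = 0.0301), where 0.513% of all genes fell, and 0 of 6 genes of the ubiquitin-like conjugation that loads GBPs onto membranes passed. Without Bach2KO replicate 2, 5 response genes and 1 IRG rose.

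Markers of other cells differed between these groups too. The monocyte and macrophage markers summed to 89.2 to 106.8 in Bach2KO cells and 16.3 to 20.0 in WT cells, with 1 of 5 tested genes rising, Ly6c1 by 9.50-fold (adjusted p = 9.2e-04). Their defining genes Ccr2 and Fcgr1 exceeded background on no array. Erythroid and megakaryocyte markers summed to 3.87 to 16.05 in Bach2KO cells and 0.36 to 1.41 in WT cells. Of 3 tested genes 2 rose, where 2.2% of all genes did, and the median of the 3 was 3.57. The platelet gene Pf4 was at least 4.01-fold higher (limma, adjusted p = 0.00928). The globin gene Hba-a1 averaged 3.11 ± 1.20 in Bach2KO and -0.62 ± 1.40 in WT cells. B-lineage markers summed to 216 to 353 in Bach2KO cells and 413 to 747 in WT cells. Of 11 tested genes 10 were below 0, with a median of -0.86, and 1 fell. Over all genes 38.1% were above 0 and 0.513% fell. NK and T cell markers summed to 9.78 to 28.8 in Bach2KO cells and 10.2 to 20.1 in WT cells. Of 7 tested genes 6 were above 0, with a median of 0.21, and 0 passed under limma. Gzma averaged -1.17 ± 0.12 in Bach2KO and -2.35 ± 0.25 in WT cells, and Cd3g -1.40 ± 0.22 in Bach2KO and -2.58 ± 0.60 in WT cells, both higher on all Bach2KO arrays (adjusted p = 0.0858 and 0.196). Cd3e and Cd4 were well above background on all arrays of both groups, whereas Ncr1, Klrb1c, Klrk1 and Gzmb exceeded it on none. Granulocyte markers summed to 10.1 to 46.3 in Bach2KO cells and 1.48 to 15.8 in WT cells, with 4 of 5 tested genes above 0, a median of 3.02 and 0 passing. Dendritic cell markers summed to 712 to 1513 in Bach2KO cells and 626 to 703 in WT cells, with 5 of 6 above 0, a median of 0.89, 0 rising and 1 falling. The part of these markers in the GBP values was not tested.

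**Figure D4:**
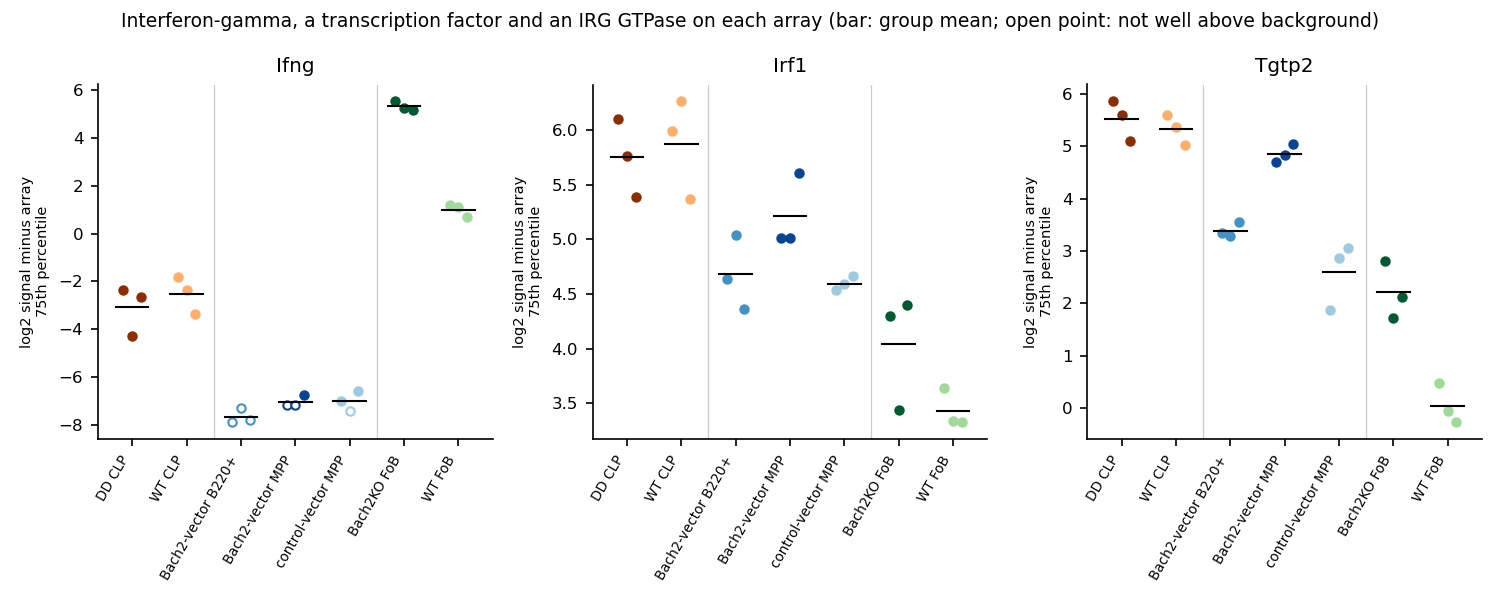
Levels of the interferon-gamma gene Ifng, the transcription factor gene Irf1 and the IRG gene Tgtp2 on each array, as log2 signal minus the array's 75th percentile; bars are group means and open points were not well above background. Ifng is high in Bach2KO follicular B cells (5.33) and lies near background in all MPP groups, whereas Tgtp2 is higher in both Bach2-vector MPPs and Bach2KO follicular B cells than in their controls.

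In CLPs the loss of both Bach1 and Bach2 gave no call for any member. A simulation gave every gene the same spread and altered 50 genes at each of several sizes. Passing rates there were 12% at 2-fold and 90% at 4-fold. With 161 genes called, its adjustment was milder than in the measured data, where 1 gene passed. The rates therefore do not carry over to the members. Bach2 itself was 4.32-fold lower in DD CLPs and did not pass (limma, adjusted p = 0.999). Changes of 4-fold could thus be missed as well as smaller ones. Of 16456 genes 1 passed (0.00608%), 618 (3.76%) had an unadjusted p under 0.05, and 0 of the 6 members passed under limma or with the replicate number as a block. All 6 overlapped between the groups, where 4.93% of genes separated upward and 2.98% downward. The median difference was -0.18, against 0.04 over all genes.

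Gbp4 read 3.17, 2.03 and 1.12 in DD CLPs, against 3.29, 1.65 and 3.03 in WT CLPs, a difference of -0.55 ± 0.62 with an interval of -1.97 to 0.87. The brighter Gbp6 probe read 1.33, 1.34 and 1.55 in DD CLPs, against 2.00, 1.54 and 3.13 in WT CLPs (-0.81 ± 0.45, interval -1.84 to 0.22). The other Gbp6 probe, at 1.12, 0.13 and -0.26 in DD CLPs and 0.92, 1.15 and 1.44 in WT CLPs, gave a like difference (-0.84 ± 0.45). Here both Gbp6 probes were well above background and had like mean differences. Over the DD arrays they ran apart, with the brighter probe highest in replicate 3 and the other probe lowest there.

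Gbp2 read 0.68, 0.20 and -0.21 in DD CLPs, against 0.03, -0.79 and -0.13 in WT CLPs (0.52 ± 0.39, interval -0.38 to 1.42). Gbp5 read -0.34, -0.72 and -1.68 in DD CLPs, against -0.85, 0.20 and -0.01 in WT CLPs (-0.69 ± 0.47, interval -1.76 to 0.38). Gbp3 read 5.59, 4.60 and 4.37 in DD CLPs, against 4.43, 4.97 and 4.56 in WT CLPs (0.20 ± 0.42). Gbp7 read -0.83, -0.80 and 1.95 in DD CLPs, against -0.75, -0.30 and 0.80 in WT CLPs (0.19 ± 0.78, interval -1.59 to 1.96). The 2 highest Gbp7 arrays carry the same replicate number, 3, and the same slide, and without DD replicate 3 the Gbp7 difference was -0.73. For Gbp3 it was -0.17 without DD replicate 1.

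Of the context genes none passed in CLPs. Ifng, Ifngr1, Ifngr2 and Jak2 differed by -0.57, -0.15, 0.00 and -0.41 on the log2 scale, and Irf1, Irf8 and Irf9 by -0.12, 0.12 and 0.05. The IRGs had 5 of 7 genes above 0 and the type I interferon response genes 8 of 10, where 53.7% of all genes were above 0, with medians of 0.19 and 0.69.

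**Figure D5:**
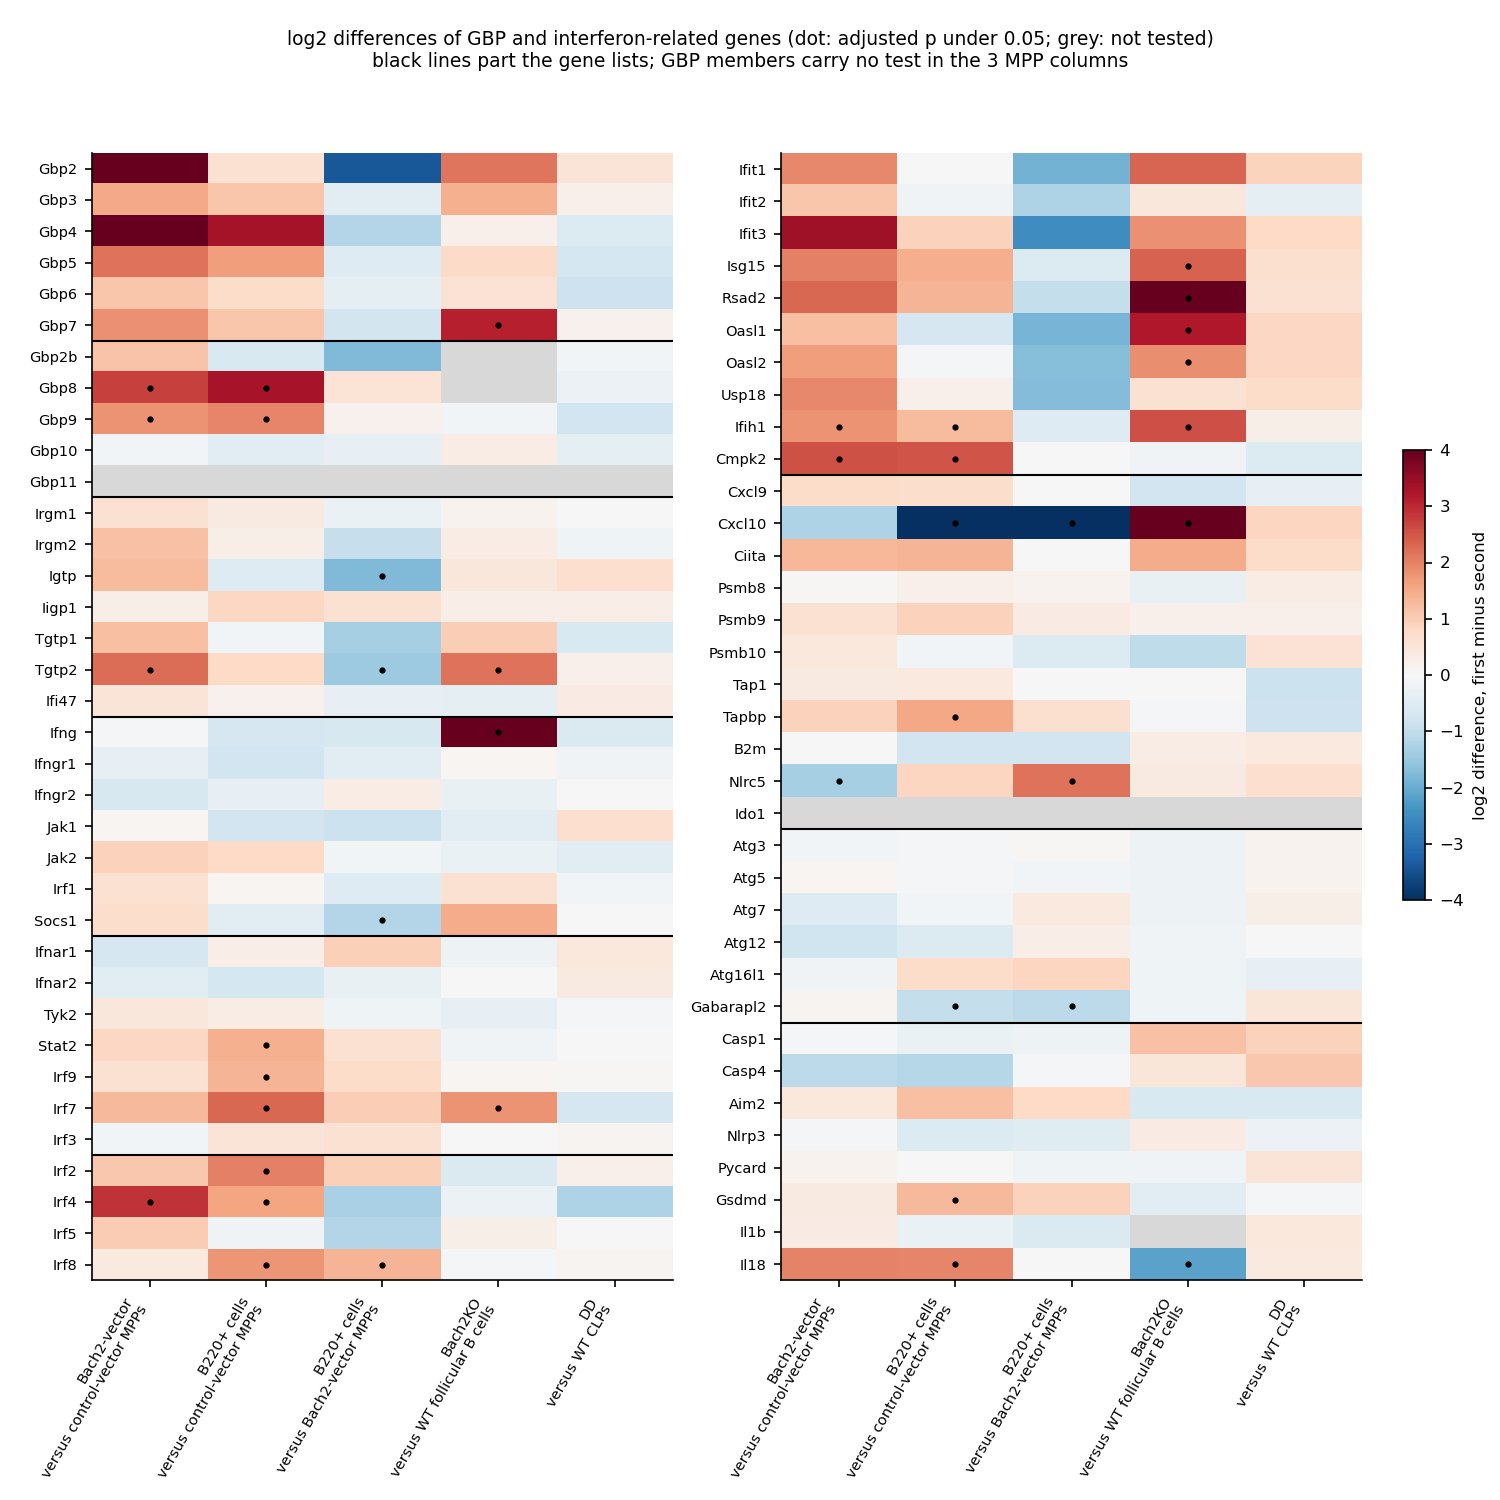
Log2 differences of the 6 GBP genes and of the interferon-related lists in 5 comparisons, the first-named group minus the second. Rows are genes, columns are comparisons, red is higher and blue lower with colours held at -4 and 4, dots mark an adjusted p under 0.05 and grey was not tested; the GBP members carry no test in the 3 MPP columns. The CLP column holds no dot, and Ifng in follicular B cells stands beyond the colour limit (4.33).

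The order of the groups differed between the members. These levels cross experiments that were amplified differently, CLP and MPP RNA over repeated rounds and follicular B-cell RNA by a linear kit, so they are not tested. Bach2-vector MPPs had the highest mean for Gbp2, Gbp3, Gbp5 and Gbp7. For Gbp2 this level, 3.05 ± 0.47, stood clear of the next group, Bach2KO follicular B cells at 0.60 ± 0.93. For Gbp7 it was 1.65 ± 0.27, next to 0.93 ± 0.40 in B220+ cells, and the nearest arrays of these groups, at 1.39 and 1.38, almost touched. Gbp3 was nearly level in 4 groups, at 4.504 ± 0.35 in B220+ cells, 4.93 ± 0.20 in Bach2-vector MPPs, 4.85 ± 0.65 in DD CLPs and 4.65 ± 0.28 in WT CLPs, whose ranges overlapped. The group means of Gbp5 spanned the narrowest range, and each of its neighbouring groups overlapped in the order Bach2-vector MPPs, Bach2KO follicular B cells, B220+ cells, WT follicular B cells, WT CLPs, DD CLPs and control-vector MPPs.

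Gbp4 and Gbp6 were highest in CLPs. Gbp4 averaged 2.11 ± 1.03 in DD CLPs and 2.66 ± 0.88 in WT CLPs, overlapping each other. The DD arrays overlapped those of Bach2-vector MPPs, and the WT arrays lay above them. Gbp6 on its brighter probe averaged 1.41 ± 0.12 in DD CLPs and 2.22 ± 0.82 in WT CLPs, and every other group lay at -3.13 or lower. WT follicular B cells had the lowest mean for Gbp2, Gbp3 and Gbp7, and control-vector MPPs for Gbp4, Gbp5 and both Gbp6 probes. The mean over the 6 genes was 1.30 ± 0.27 in DD CLPs and 1.49 ± 0.36 in WT CLPs. It was 0.27 ± 0.38 in B220+ cells, 1.37 ± 0.19 in Bach2-vector MPPs and -1.15 ± 0.21 in control-vector MPPs, and it was -0.49 ± 0.69 in Bach2KO and -1.86 ± 0.18 in WT follicular B cells.

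Members were alike only in part. Over the 21 arrays Pearson's r between 2 members ran between -0.16 for Gbp5 with Gbp6 and 0.86 for Gbp3 with Gbp7, and it was 0.76 for Gbp4 with Gbp6. Over the 9 MPP arrays it was 0.98 for Gbp3 with Gbp5 and 0.04 for Gbp2 with Gbp6. The arrays fall into 7 groups in 3 experiments, so these values mostly reflect group levels.

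Among 16594 genes, those whose levels over the 21 arrays were most like the mean of the 6 were Tgtp2 (r = 0.938), Rilpl1 (0.923), Rnase6 (0.905), Rsad2 (0.904) and Zdhhc8 (0.889). Tgtp2 and Rsad2 are interferon-induced. Irf1 stood at rank 9 with 0.878, Irf9 at 0.65 and Ifngr1 at 0.60, whereas Irf8 had -0.08, Jak2 -0.05, Ifng -0.32 and Ifngr2 -0.80. Over the 9 MPP arrays alone the 5 closest genes were Itpka (0.978), Lbh (0.977), Tep1 (0.974), Ifit1bl1 (0.962) and Tgfbr2 (0.961), and Irf1 had 0.78 and Jak2 0.87 there. None of the 5 closest genes was shared between the wide and the narrow set of arrays, although Zdhhc8, the fifth over all arrays, stood at rank 6 over the MPP arrays (0.956).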

How the data were processed

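The values were processed spot intensity values from single-colour scans, which the authors made with Agilent Feature Extraction (10.7.3.1 per the file headers, 9.1 per the submitters' processing notes). The deposited value table held the same intensity values, with a largest relative difference of 0. The files held no log2 values; per array, log2 of the deposited processed intensity minus the 75th percentile over non-control spots was computed here. Outlier spots were left out, and no arrays were identical (0 pairs). Probes were named through their RefSeq accession in a GRCm38.p6 table; the headers name mm9, so no array coordinates were used.

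Each gene was represented by its brightest named probe. Genes were tested if the scanner called that probe well above background on 3 or more arrays of the experiment and each group had 2 or more values. Within each experiment groups were compared by limma 3.58.1 (lmFit, eBayes) in R 4.3.3 with the data.table package (1.17.8), with Benjamini-Hochberg adjustment over all genes and a threshold of 0.05. The 9 MPP arrays shared 1 fit. The fit was tested on simulated data. Where a group had no array well above background, a bound was given, from the lowest signal well above background. Files were read and motifs searched in Python (3.11.15; pandas 2.3.3, numpy 2.4.6), and plots were drawn in matplotlib 3.10.9.

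The members and gene lists were chosen with earlier results of these data known. Named genes are the members, list genes that passed, a fixed set of interferon pathway genes in every comparison, a few others per list with the smallest p, and the 5 genes most like the family. Values named beyond this rule, such as single marker genes, were picked after they were seen. Some genes of the lists are not reported here.

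Same-numbered arrays were taken to pair where every correlation of their deviations from group means was over 0.1. It was 0.43, 0.39 and 0.22 in CLPs, 0.86, 0.72 and 0.54 in follicular B cells and 0.65, 0.41 and 0.30 between vectors. It was 0.13, -0.03 and -0.06 between B220+ cells and control-vector MPPs, and 0.08, 0.12 and 0.10 between B220+ cells and Bach2-vector MPPs, which were not taken as paired. Arrays of different number on the same slide correlated as well. Bach2KO replicate 2 had 0.50 with WT replicate 3, and Bach2-vector replicate 2 had 0.31 with control-vector replicate 3. For replicate 3 with replicate 2 these values were 0.23 and 0.22. Alternatives were other background correction, normalization, filters, probe choice, variance model, blocks and left-out arrays.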

Additional observations from a re-analysis of the deposited data

How the results depend on the processing

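Normexp background correction was run on the median signal, chosen after seeing the files because they hold no mean signal. The number of members rising in Bach2KO follicular B cells, 1, was 0 with normexp or quantile normalization, 2 with a variance trend, 3 with slide as a block and 4 with the replicate block; leaving out 1 array gave 0 to 2 (0 without Bach2KO replicate 3, 2 without Bach2KO replicate 2). In the variance trend fit Gbp2 had an adjusted p of 0.0394, and with slide as a block Gbp2, Gbp3 and Gbp7 had 0.00603, 0.0120 and 0.00192. The cause was not tested. Over all genes, 354 passed there, against 105 with normexp, 2976 with the replicate block and 1193 with slide as a block, and 159 without Bach2KO replicate 3, 215 without WT replicate 2 and 189 without WT replicate 3. With 1 array left out, 106 to 199 genes passed between the vectors, against 305 with all arrays (106 without control-vector replicate 2). For B220+ cells against control-vector MPPs it was 2057 with all arrays and 1034 without control-vector replicate 2, and against Bach2-vector MPPs it was 1048 with all arrays, 672 with those 6 arrays alone and 443 without Bach2-vector replicate 3. In CLPs 16 passed without DD replicate 1. The median difference of the members was 1.09 to 1.67 between B220+ cells and control-vector MPPs when 1 array was left out (1.67 without B220+ replicate 3), and -1.04 to -0.54 between B220+ cells and Bach2-vector MPPs (-1.04 without B220+ replicate 2). In CLPs the difference of Gbp3 was -0.17 to 0.44 and that of Gbp7 -0.73 to 0.65 when 1 array was left out, with a turned sign for Gbp7 also without WT replicate 1 (-0.15). Of the summary values, 68 of those under other settings and 38 of those with 1 array left out kept their direction and side of the threshold, and 5 and 4, given above, moved. The replicate block changed no other call of the members in CLPs (0 rising). The all-gene median moved between -0.29 and -0.08 for B220+ cells against control-vector MPPs with the scaling, so small differences there depend on it. The number of arrays, 3 a group, and the dim follicular B-cell arrays limit the precision.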

Other observations

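Of the genes that work downstream of GBPs, a few passed in B220+ cells. Against control-vector MPPs, 2 of 8 inflammasome and pyroptosis genes rose, where 4.65% of all genes rose, and 5 of the 8 were below 0, with a median of -0.15. Those that rose were Gsdmd, the pore-forming protein that inflammasome caspases cut, by 2.43-fold (adjusted p = 0.0227) and Il18 by 3.90-fold (adjusted p = 0.0266). Gabarapl2, the only 1 of 6 genes of the membrane-loading conjugation system to pass there, fell 1.92-fold against control-vector MPPs and 2.08-fold against Bach2-vector MPPs (adjusted p = 0.0276 and 0.0277), where 7.46% and 4.16% of all genes fell. Tapbp, a peptide-loading chaperone of MHC class I, rose 2.92-fold against control-vector MPPs (adjusted p = 0.0275). Cxcl10 fell 59.3-fold against control-vector MPPs and 25.2-fold against Bach2-vector MPPs (adjusted p = 0.00571 and 0.0270), with the probe well above background on 1 of 3 B220+ arrays. Nlrc5 rose 4.55-fold against Bach2-vector MPPs (adjusted p = 0.00233).

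Irf2 and Irf4 rose in B220+ cells against control-vector MPPs, by 4.07-fold and 3.01-fold (adjusted p = 0.00766 and 0.0490). Cmpk2 and Ifih1 rose there as well, by 5.77-fold and 2.42-fold (adjusted p = 0.00124 and 0.0192), and against Bach2-vector MPPs they differed by -0.01 ± 0.30 and -0.51 ± 0.28.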
